A study of Homo sapiens with 18 samples.

Results

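The genes described here are the HOXB cluster genes HOXB2, HOXB3, HOXB4, HOXB5, HOXB6, HOXB7, HOXB8 and HOXB9, 8 of the 17017 gene symbols in the deposited table. They were chosen by symbol as the cluster neighbours of HOXB9, whose fall after fibrillarin knockdown had drawn attention to the cluster, so the values of HOXB9 against the control are given as a description without a test. The question was whether the fall of HOXB9 extended to the other genes of its cluster. The cells were MDA-MB-231, an established line of triple-negative breast carcinoma. All cells had been infected with a lentivirus and kept in puromycin, and carried either the control construct (SC, read here as scramble) or a hairpin directed at the fibrillarin transcript (SH2 or SH3). Fibrillarin is a nucleolar enzyme that methylates ribosomal RNA. The protocol numbers the knockdowns, and how its numbers map to SH2 and SH3 is not stated. From each of 3 replicates per treatment, cytoplasmic RNA (called RNA here) and ribosome footprints were sequenced, which gave 18 libraries. All lysates were made after cycloheximide, which arrests elongating ribosomes.

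HOX genes encode homeodomain transcription factors that give cells their position along the head-to-tail axis of the embryo. They lie in clusters in which the order of the genes follows the order of their use along the body, with low numbers towards the head. Polycomb complexes keep such clusters silent, trithorax-group complexes keep them active, and PBX, MEIS and PKNOX proteins bind DNA together with HOX proteins. In adult tissue a cell type keeps part of its HOX pattern, and HOXB7 and HOXB9 are among the members that have been studied in breast carcinoma.

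RNA libraries held 23469830 to 27629488 reads and footprint libraries 1662705 (SH3 replicate 1) to 6098648 (SC replicate 1), so low genes are measured far less precisely in footprints. FBL, the gene of fibrillarin, had fallen to 1.48% of SC in SH2 RNA and 0.897% in SH3 RNA. The line's mesenchymal marker VIM (vimentin) stood at 4704 to 6581 CPM in the RNA group means, AXL at 872 to 1487 and MSN at 353 to 473. AXL fell in SH2 (log2 change -0.77, adjusted p = 0.000242) and MSN rose there (0.32, adjusted p = 0.0286). Of luminal markers, KRT19 was present at 407 to 495 CPM, GATA3 at 8.03 to 11.2 and EPCAM at 5.66 to 7.94. GATA3 rose in SH2 (0.48, adjusted p = 0.00947), and EPCAM was called higher in SH3 at the edge of the threshold (0.49, adjusted p = 0.05 after rounding). Other markers, named after their values were seen, moved in both directions in RNA. CAV1 was called lower in both hairpins, CAV2 and CD44 higher in SH2, and CAV2 and the luminal marker FOXA1 lower in SH3. ESR1, the oestrogen receptor, named after its values were seen, had at most 1 read in any RNA library. CPM is the read count scaled to a common library size, with TMM factors that correct for library composition. The labels do not say that replicates came from separate cultures, so p-values measure the spread between these samples, which may be technical. In bulk samples such as these, fewer cells expressing a gene and less RNA per cell cannot be told apart.

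HOXB9, which patterns the thoracic skeleton and takes part in mammary gland development, was lower in every hairpin library than in every SC library, in RNA and in footprints. Its RNA stood at 18.3, 13.6 and 17.3 CPM in SC replicates 1, 2 and 3 (449, 331 and 439 reads). SH2 had 3.33, 2.71 and 2.95 CPM (85, 72 and 83 reads). SH3 had 5.72, 3.94 and 3.60 CPM (143, 94 and 94 reads). The groups did not overlap, and all SH2 libraries were below all SH3 libraries. Mean levels for SC, SH2 and SH3 were 16.4 ± 2.46, 2.998 ± 0.315 and 4.42 ± 1.14 CPM (SD, n = 3 each). This was a log2 change of -2.45 (SE 0.19) in SH2, or 5.47-fold lower, and of -1.89 (SE 0.19) in SH3, or 3.71-fold lower. Among 12710 genes tested in RNA, HOXB9 ranked 56 from the lowest change in SH2 and 175 in SH3. These ranks are a description only, since the fall of HOXB9 had drawn attention to the cluster. Across these genes the median log2 change was 0.01 in SH2 and 0.03 in SH3.

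**Figure D1:**
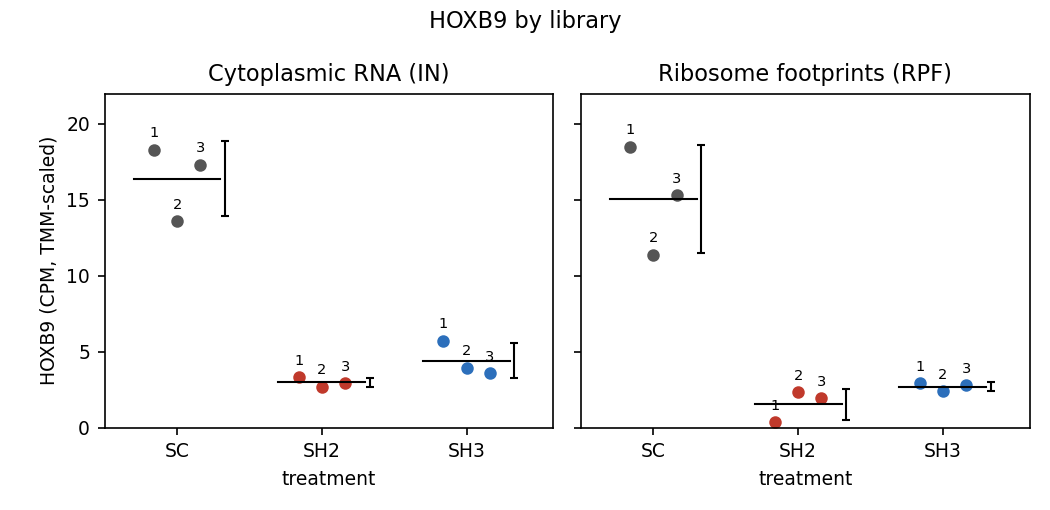
HOXB9 level (CPM, axis from 0) in each RNA and footprint library by treatment. Points are single libraries marked with their replicate number, lines are group means and bars SD (n = 3). SC libraries lie between 11.4 and 18.5 CPM in both panels, above every hairpin library, the highest of which is SH3 RNA replicate 1 at 5.72 CPM.

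Footprints of HOXB9, the fragments that translating ribosomes protect from nuclease, followed the same order. SC had 18.5, 11.4 and 15.3 CPM (114, 27 and 86 reads). SH2 had 0.370, 2.33 and 1.94 CPM (1, 10 and 6 reads), and SH3 had 2.93, 2.40 and 2.80 CPM (5, 7 and 8 reads). SC did not overlap with either hairpin, and SH2 replicate 1 was the lowest library with a single read. The log2 change was -3.18 (SE 0.37) in SH2, 9.09-fold lower, and -2.51 (SE 0.37) in SH3, 5.69-fold lower. HOXB9 ranked 5 from the lowest in SH2 and 35 in SH3 among 10345 genes tested in footprints. It passed the filter on low counts in footprints through the SC libraries alone, so its footprint values rest on 17 reads in SH2 and 20 in SH3. A low rank thus follows in part from the choice of HOXB9 and from the filter.

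Each lysate gave both an RNA and a footprint library, so the ratio of the 2 CPM values could be taken per lysate. For HOXB9 it was 1.01, 0.834 and 0.884 in SC, 0.111, 0.860 and 0.658 in SH2, and 0.512, 0.608 and 0.779 in SH3. The means were 0.909 ± 0.0907, 0.543 ± 0.388 and 0.633 ± 0.135 (SD, n = 3 each). SH3 lay below SC in all lysates, while SH2 replicate 2 lay inside the SC range. Translational efficiency, the footprint change less the RNA change in a joint fit, was -0.77 (SE 0.46) on the log2 scale in SH2 and -0.63 (SE 0.44) in SH3. Without SH2 replicate 1 the SH2 value was -0.32, and without SH2 replicate 2 it was -1.32. As point estimates, the RNA change of HOXB9 was smaller than its footprint change in both hairpins. With these SEs the 95% interval of translational efficiency spanned no change in each hairpin. The footprint side rests on 17 reads in SH2 and 20 in SH3. A change of HOXB9 in translation beyond that in RNA is therefore not read from these values.

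The hairpins were compared with each other for HOXB9, a contrast that did not choose it. HOXB9 RNA was lower in SH2 than in SH3 by -0.56 on the log2 scale (SE 0.20, 1.48-fold, edgeR adjusted p = 0.0398). It was thus 1 of 8 members called, of 2 tested, where 39.3% of all genes were called in this contrast in either direction. The call was lost without any one of SC replicate 3 (adjusted p = 0.0534), SH2 replicate 2 (0.129), SH2 replicate 3 (0.110), SH3 replicate 1 (0.252) or SH3 replicate 2 (0.0533), and the log2 difference ran from -0.68 to -0.31 over the leave-one-out fits. In footprints the difference was -0.68 (SE 0.52, 95% interval -1.69 to 0.33, edgeR adjusted p = 0.366), against a background of 23.8% of genes called. In translational efficiency it was -0.14 (SE 0.57, edgeR adjusted p = 0.958), and 0.0160% of all genes were called. No difference of HOXB9 between the hairpins was detectable in those 2 measures at this depth.

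HOXB3, which acts in hindbrain patterning, was the other member with enough RNA reads to be tested. Its RNA stood at 2.16, 3.42 and 2.28 CPM in SC (53, 83 and 58 reads), 2.39, 1.88 and 2.28 CPM in SH2 (61, 50 and 64 reads) and 1.32, 1.43 and 1.72 CPM in SH3 (33, 34 and 45 reads). SH2 overlapped with SC, and SH3 lay below both. In SH2 the log2 change of HOXB3 was -0.26 (SE 0.23, 95% interval -0.72 to 0.19, edgeR adjusted p = 0.343). In SH3 HOXB3 fell by 0.81 on the log2 scale (SE 0.24, 1.75-fold, edgeR adjusted p = 0.0121). Without SC replicate 2, the highest SC library, the SH3 change was -0.57 and its adjusted p 0.0749. SH2 and SH3 differed by 0.55 (SE 0.25, edgeR adjusted p = 0.0913), which did not pass the threshold. The fall of HOXB3 in SH3 thus came with no call in SH2, the opposite order of the hairpins from HOXB9, and the difference between the 2 genes' changes was not tested.

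Counted over the 7 members other than HOXB9, of which only HOXB3 had reads enough, 0 were called lower in SH2 RNA by edgeR and 1 in SH3 RNA. At an unadjusted p under 0.05 the counts were also 0 and 1, and DESeq2 gave 0 and 1. Of all genes tested, 30.4% were called lower and 31.1% higher in SH2, and 25.2% lower and 27.8% higher in SH3, so 1 call among the members is not set apart from the background.

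HOXB3 had almost no footprints. SC held 2, 1 and 0 footprint reads, SH2 held 0, 0 and 1, and SH3 held 0, 0 and 1. Both hairpins were at or under the floor of 3 reads per group, so no footprint change or translational efficiency of HOXB3 is given. In SC the 194 RNA reads and 3 footprint reads of HOXB3 gave a footprint to RNA ratio of 0.0810 (exact 95% Poisson interval 0.0167 to 0.237, counting error only). The median ratio over 12710 genes was 0.797 (quartiles 0.453 and 1.25), and 2.53% of genes had a lower ratio than HOXB3. HOXB9 stood at 0.975 (0.853 to 1.11) on this measure, with 60.8% of genes lower. The other HOX genes tested in RNA lay between 0.419 (HOXD3) and 1.38 (HOXC9). In RefSeq's gene table the span of HOXB3 overlaps HOXB4, MIR10A and the noncoding genes HOXB-AS1, HOXB-AS2 and HOXBLINC. Whether the counting used strand, and which part of a transcript it covered, is not given in the sources used here, so RNA reads of HOXB3 and of these partners cannot be told apart.

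**Figure D2:**
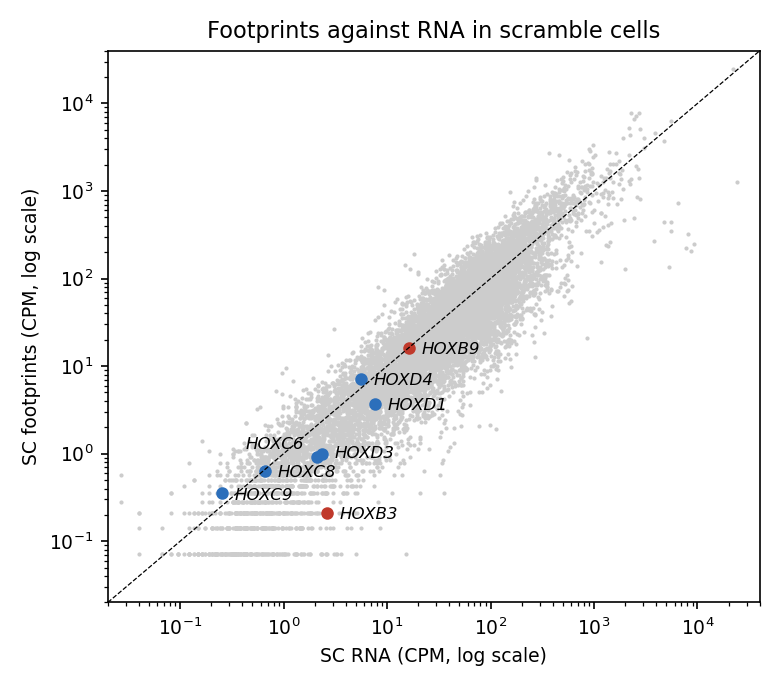
RNA level (x axis, CPM) against footprint level (y axis, CPM) in SC for the 12518 of 12710 genes with a footprint, both on log scales, with HOXB genes in red, other HOX genes in blue and all genes in grey. Each point pools 3 libraries and the dashed line marks equal values. HOXB9 lies at the line and HOXB3 far below it, at 0.0810 footprint CPM per RNA CPM.

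The other 6 members, HOXB2, HOXB4, HOXB5, HOXB6, HOXB7 and HOXB8, stayed below the filter on low counts, with at most 10 reads in any RNA library. HOXB8, a gene able to block the maturation of myeloid progenitors, had 10, 7 and 10 RNA reads in SC. It had 5, 4 and 2 in SH2, and 3, 4 and 0 in SH3. Every hairpin library of HOXB8 was below every SC library. The share of all genes that separate in this way was not counted, for HOXB8 or for any other member or sum. For scale, 30.4% of the genes tested were called lower in SH2 RNA and 25.2% in SH3 RNA. Scaled for depth, SH2 held 37.7% of the SC level (95% counting interval 16.9 to 78.5) and SH3 25.7% (9.44 to 60.4).

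HOXB7, reported to promote mesenchymal traits in breast carcinoma cells, had 7, 2 and 6 RNA reads in SC, 1 in each SH2 library, and 2, 4 and 0 in SH3. SH2 lay below SC while SH3 overlapped with it. The pooled level was 18.5% of SC in SH2 (counting interval 3.43 to 65.4) and 39.6% in SH3 (12.6 to 108). HOXB7 also had 5 footprint reads in SC (4, 1 and 0), and 0 in all hairpin libraries, which allows up to 3 reads in each hairpin group.

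HOXB6, a gene active in limb and blood precursors, had 1, 8 and 1 RNA reads in SC, 0, 1 and 1 in SH2, and 0 in every SH3 library. SH2 met SC at 1 read, while SH3 lay below it. SH2 stood at 18.5% of SC (counting interval 1.97 to 86.8), and the 0 reads of SH3 against 10 in SC allow up to 44.2% of SC. Replicate 2 held 8 of the 10 SC reads, so without it SC is itself under the floor of 3 reads and no change of HOXB6 can be given. HOXB5, known from enteric neural crest and vessel development, had 3, 3 and 2 RNA reads in SC, 0, 1 and 0 in SH2, and 0, 0 and 1 in SH3. Its hairpin libraries all lay below SC, at 11.6% (0.261 to 86.3) in SH2 and 12.4% (0.279 to 92.3) in SH3.

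HOXB4 and HOXB2 overlapped with SC in both hairpins, as HOXB6 did in SH2 and HOXB7 in SH3. HOXB4, a regulator of blood stem cell growth, had 1, 4 and 1 RNA reads in SC, 5, 3 and 4 in SH2, and 4, 7 and 4 in SH3. The hairpin values of HOXB4 overlapped with SC, and the pooled ratio was 185% (64.3 to 601) in SH2 and 247% (90.7 to 779) in SH3. HOXB2, which acts in the hindbrain upstream of facial nerve formation, had 5, 8 and 2 RNA reads in SC, 5, 2 and 3 in SH2, and 1, 1 and 3 in SH3. Both hairpins overlapped with SC for HOXB2, at 61.7% (24.8 to 147) and 33% (9.38 to 95.5).

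**Figure D3:**
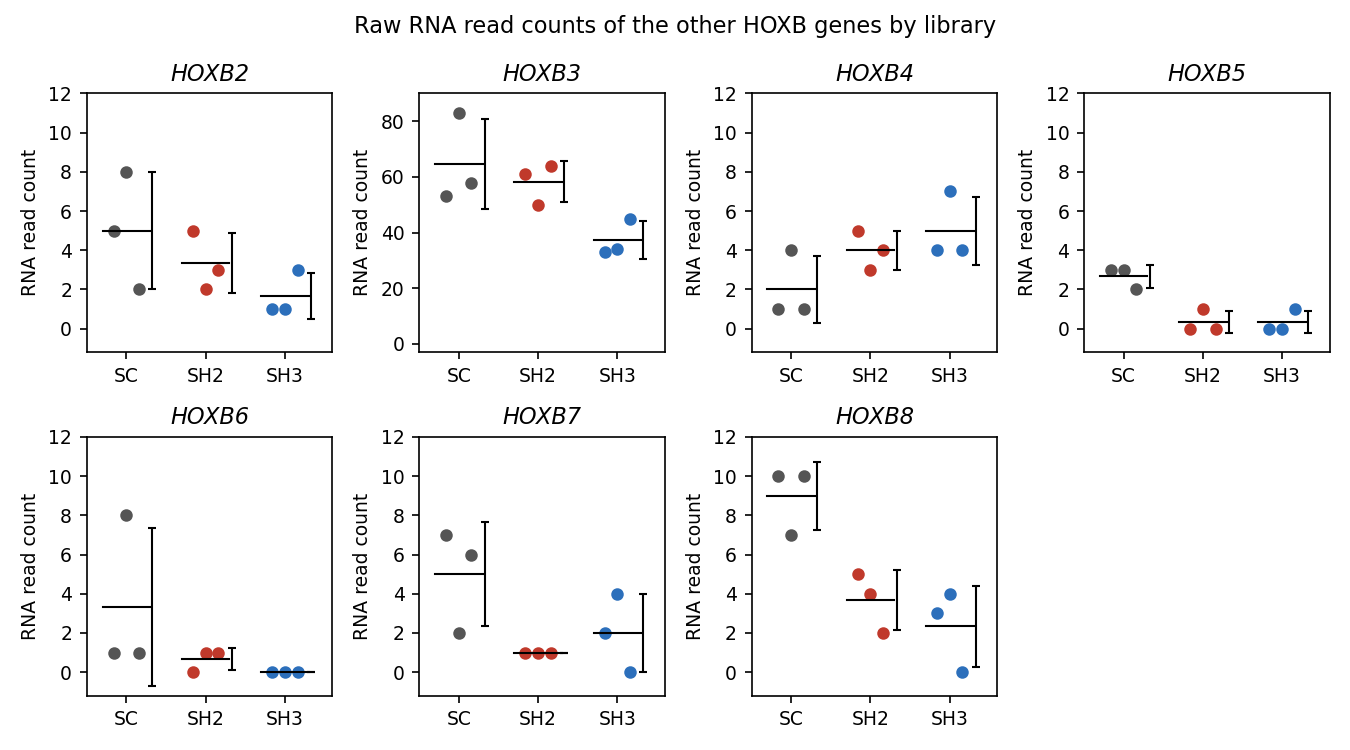
Raw RNA read counts of HOXB2 to HOXB8 in each library by treatment, not scaled for depth, which varied little between RNA libraries. Points are libraries, lines are group means and bars SD (n = 3). HOXB3 has its own axis. HOXB8 and HOXB5 show every hairpin library below every SC library, while HOXB2, HOXB3, HOXB4, HOXB6 and HOXB7 overlap with SC in SH2, SH3 or both.

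Reads were also summed over members, as a description of sets whose division was made after their values were seen. HOXB5, HOXB6, HOXB7 and HOXB8, the members next to HOXB9, together had 21, 20 and 19 RNA reads in SC, 6, 7 and 4 in SH2, and 5, 8 and 1 in SH3. The hairpin sums all lay below SC, at 26.2% of it in SH2 (95% counting interval 14.3 to 45.5) and 23.1% in SH3 (11.9 to 41.8). The SC replicate 2 sum of 20 includes 8 reads of HOXB6, for which no change could be given. Part of the depth of this fall thus rests on that library, and the sum was not tested against HOXB9. HOXB9 itself stood at 18.2% (15.8 to 20.9) and 26.9% (23.7 to 30.4) on this pooled measure. HOXB2 and HOXB4, at the low-numbered end, summed to 21, 22 and 20 reads in SC, SH2 and SH3, or 96.9% (50.8 to 185) and 94.3% (48.5 to 183) of SC. That sum joins HOXB2, at 61.7% and 33% of SC, with HOXB4, at 185% and 247%, so it does not show either gene unchanged. HOXB3, which lies between them, is in neither set and stood at 83.45% of SC in SH2 and 57.2% in SH3. The 6 low members together gave 44.5% (29.6 to 66.0) and 41.6% (27.0 to 62.8). These intervals cover counting error only. In footprints the same 6 genes had 8 reads in SC, of which 7 were in replicate 1, and 0 in both hairpins.

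Without the filter on low counts, all 7 members could be tested in RNA, over 16851 genes. HOXB7 was then called lower in SH2 (log2 change -2.29, SE 0.92, edgeR adjusted p = 0.0414), and HOXB8 (-1.90, SE 0.68, adjusted p = 0.0260), HOXB6 (adjusted p = 0.0224) and HOXB3 in SH3. The members called were thus 1 of 7 in SH2 and 3 of 7 in SH3, and 3 and 4 had an unadjusted p under 0.05, all lower. In the same fit 23.4% of all genes were called lower in SH2 and 19.0% in SH3, and 25.3% and 22.1% were lower at an unadjusted p under 0.05. The counts of members were not tested against that background. HOXB5 gave -2.70 in SH2 (adjusted p = 0.0765) and -2.62 in SH3 (0.100), and HOXB8 gave -1.37 in SH2 (0.0724). The call of HOXB6 in SH3 rests on SC replicate 2, which held 8 of its 10 SC reads. The 3 calls in SH3 thus include 1 that is not read as a change. HOXB4 moved the other way, at 0.85 (adjusted p = 0.417) and 1.27 (0.198), without passing the threshold.

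No member other than HOXB9 had reads enough to be tested in footprints. Without the filter, 4 of the 7 could be tested with edgeR, and 0 were called or had an unadjusted p under 0.05 in either hairpin. The background in footprints was 23.2% of genes lower and 21.0% higher in SH2, and 19.0% lower and 16.9% higher in SH3. In translational efficiency HOXB3 alone of the 7 passed the filter, with the 1 to 3 footprint reads per group given above, so its lack of a call is not read. The background there was 3.90% of genes in SH2 and 0.686% in SH3. At these read numbers a change of the low members in footprints was not detectable.

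HOXB9 gave most of the RNA reads of the 8 members. Its share was 84.9%, 74.2% and 84.6% in SC, 52.5%, 53.7% and 52.5% in SH2, and 76.9%, 65.3% and 63.9% in SH3. These are shares of reads, not of molecules, since transcript lengths were not used. SH2 lay below SC throughout, and SH3 overlapped with SC through its replicate 1. Over the 8 members, HOXB9 included, the RNA reads for SC, SH2 and SH3 were 1494, 454 and 477. After scaling, the hairpins stood at 28.1% (25.3 to 31.3) and 31.6% (28.5 to 35.1) of SC. HOXB9, whose fall chose the cluster, dominates this sum, so it does not show whether the other members fell. HOXB13, which lies beyond HOXB9, had 0 RNA reads in all libraries. HOXB1 and the noncoding RNAs of the cluster were not analysed here.

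The genes on both sides of the cluster moved in both directions. Of 7 flanking genes tested in RNA, 1 fell and 3 rose in SH2, with a median log2 change of 0.28, and 1 fell and 1 rose in SH3, with a median of 0.03. The background in RNA was 30.4% of genes lower and 31.1% higher in SH2, and 25.2% lower and 27.8% higher in SH3. The flanking counts were not tested against it. On the HOXB1 side, NFE2L1, a transcription factor of proteasome genes, rose in both hairpins (0.41, adjusted p = 0.00761, and 0.42, adjusted p = 0.00820). CBX1, a heterochromatin protein, rose in SH2 (0.91, adjusted p = 0.000283), and SNX11, a sorting nexin, gave 0.28 and 0.16 without passing the threshold in either. On the HOXB9 side, CALCOCO2, an autophagy receptor, fell in SH2 by 0.41 on the log2 scale (adjusted p = 0.00476). ATP5MC1, a subunit of ATP synthase, fell in SH3 by 0.35 (adjusted p = 0.0298), SNF8, a sorting complex subunit, rose in SH2 (0.30, adjusted p = 0.0167), and UBE2Z gave 0.17 and -0.04. The deepest of these falls, -0.41, compares with -2.45 for HOXB9 in the same contrast.

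**Figure D4:**
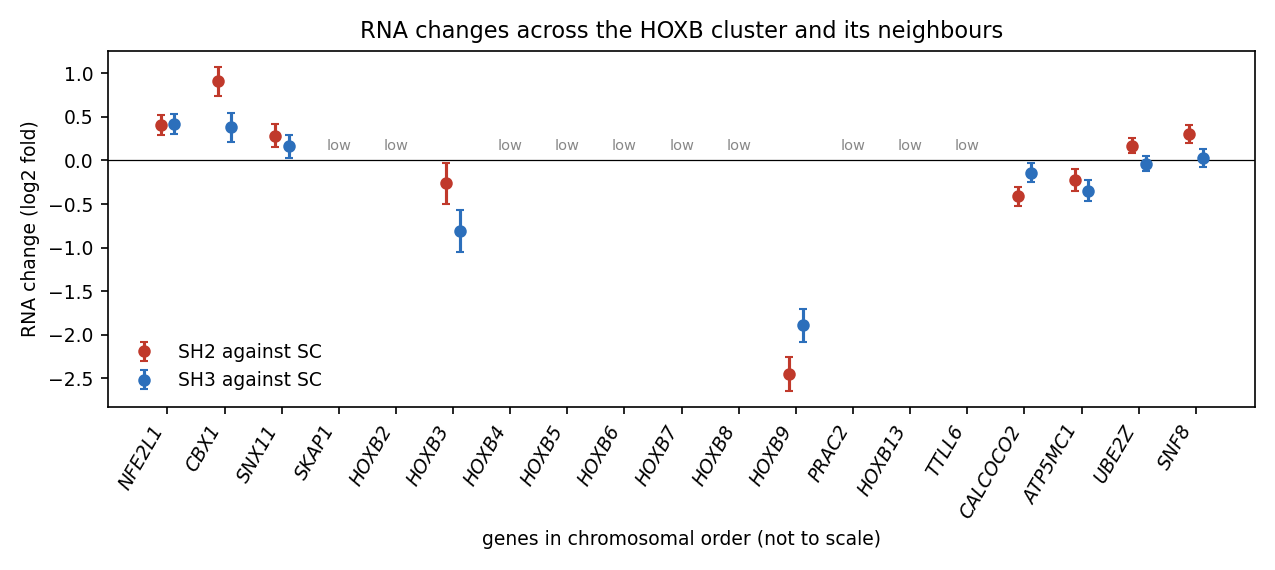
RNA log2 change (y axis, points) with its SE (bars) against SC for SH2 and SH3, with genes in chromosomal order on the x axis (not to scale), from NFE2L1 through the HOXB genes to SNF8. Genes marked "low" were below the filter on low counts. HOXB9 has the lowest values, -2.45 and -1.89, and the other genes tested lie between -0.81 (HOXB3 in SH3) and 0.91 (CBX1 in SH2).

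Other HOX genes provide a comparison outside the cluster. Of 29 HOXA, HOXC and HOXD genes, 18 were in the table and 6 passed the RNA filter. HOXC9 passed only through SH2, where it was high, and is left out of the counts. Of the other 5, 2 fell in SH2, with a median log2 change of -0.28, and 3 fell in SH3, with a median of -0.62. None of them rose in edgeR's test, and 0 were higher at an unadjusted p under 0.05. Of all genes tested in RNA, 30.4% were called lower and 31.1% higher in SH2, and 25.2% lower and 27.8% higher in SH3. The counts of these 5 genes were not tested against that background. HOXC6 fell in both (-0.83, SE 0.26, edgeR adjusted p = 0.0134, and -1.02, SE 0.27, adjusted p = 0.00555), and so did HOXD1 (-0.67, adjusted p = 0.0302, and -0.82, adjusted p = 0.01351). HOXD4 fell in SH3 (-0.62, adjusted p = 0.00461) and gave -0.28 in SH2. HOXC9, a paralog of HOXB9, had 5 to 7 RNA reads a library in SC, 12 to 16 in SH2 and 4 to 6 in SH3. Since the filter kept it for its SH2 libraries, its values are given with no test. HOXC8 (-0.08 and -0.49) and HOXD3 (0.38 and 0.22) did not pass the threshold. The falls of HOXC6 and HOXD1 in SH3 stand beside -0.81 for HOXB3 and -1.89 for HOXB9, and differences between genes were not tested. No HOXA gene passed the RNA filter.

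**Figure D5:**
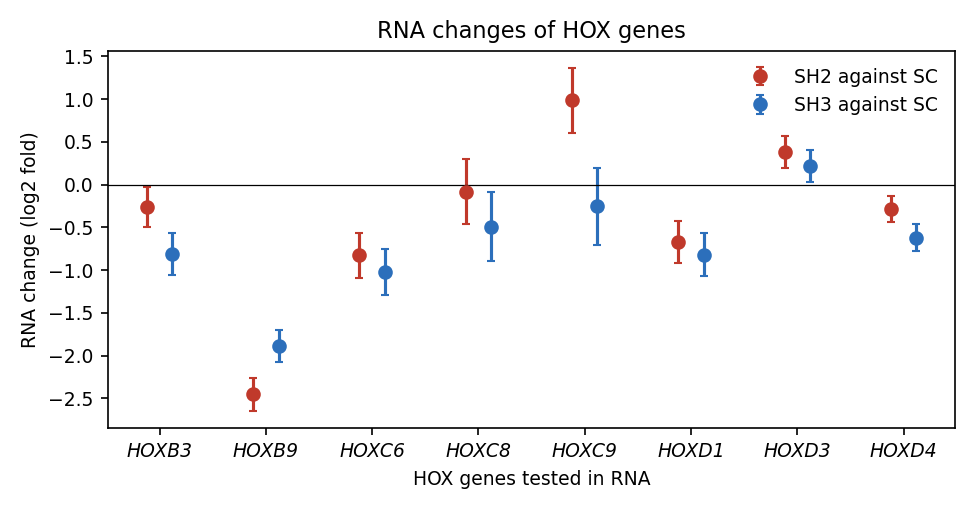
RNA log2 change (y axis, points) with its SE (bars) against SC in SH2 and SH3 for the 8 HOX genes tested in RNA. HOXB9 has the lowest value in both hairpins (-2.45 and -1.89), and HOXC6 is lower than HOXB3 in both. HOXC9 passed the filter only through SH2, so its higher SH2 value is no test.

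The DNA-binding partners of HOX proteins moved in both directions. Of 8 TALE cofactors tested in RNA (the PBX, MEIS and PKNOX genes), 2 fell and 2 rose in SH2 (median log2 change 0.27), and 3 fell and 2 rose in SH3 (median 0.03). Beside these counts, 30.4% of all genes were called lower and 31.1% higher in SH2, and 25.2% and 27.8% in SH3. The cofactors were not tested against these shares. PBX3 fell in both hairpins (-0.37, adjusted p = 0.0267, and -0.79, adjusted p = 0.000265). PBX2 rose in both (0.49, adjusted p = 0.000473, and 0.33, adjusted p = 0.01), with 95.4 ± 3.31, 134 ± 8.497 and 120 ± 11.4 CPM for SC, SH2 and SH3 (SD, n = 3 each). PKNOX1 fell in SH2 (-0.35, adjusted p = 0.0203).

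Chromatin regulators that act on HOX clusters were also divided. Of 11 trithorax-side genes, 4 fell and 5 rose in SH2 RNA and 1 fell and 6 rose in SH3 RNA. Over all genes tested in RNA, 30.4% were called lower and 31.1% higher in SH2, and 25.2% and 27.8% in SH3. The counts of this list and of those below were not tested against that background. KMT2A, a methyltransferase that keeps HOX genes active, fell in SH2 (-0.54, adjusted p = 0.000807) and gave -0.25 in SH3 (adjusted p = 0.0717), while its relative KMT2B rose in both (0.42 and 0.41). Outside RNA, KMT2A was called higher in SH3 in footprints and in translational efficiency, and was called in neither in SH2. Of all genes, 16.9% were called higher in SH3 footprints and 0.686% in SH3 translational efficiency in either direction. DOT1L, a methyltransferase of transcribed chromatin, rose by 0.65 in SH2 and 1.43 in SH3. Of 27 Polycomb subunits, 9 fell and 8 rose in SH2 (median 0.00) and 7 fell and 9 rose in SH3 (median -0.02). JARID2, an accessory subunit of the Polycomb methyltransferase complex, rose in both, with mean levels of 90.4 ± 14.1, 245 ± 22.3 and 205 ± 15.3 CPM for SC, SH2 and SH3 (SD, n = 3 each), a log2 change of 1.44 (SE 0.12, adjusted p = 3.48e-07) and 1.18 (SE 0.12, adjusted p = 3.35e-06). PHC2 also rose in both (0.56 and 1.18), and PHF19 fell in both (-0.52 and -0.35). Of 12 factors reported upstream of HOXB genes, such as retinoic acid receptors, NF-Y and cohesin, 5 fell and 3 rose in SH2 and 2 fell and 4 rose in SH3. The cohesin subunit RAD21 fell in SH2 (-0.72, adjusted p = 7.87e-05) and gave -0.20 in SH3 (adjusted p = 0.152). RXRB, a partner of the retinoic acid receptors, rose in both (0.31, adjusted p = 0.00867, and 0.67, adjusted p = 3.69e-05), and USF2 gave -0.06 and -0.01, without passing the threshold.

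No gene of a short list reported to respond to HOXB9 was called lower. Of 8 tested in RNA, 0 fell and 6 rose in SH2 (median log2 change 0.75), and 0 fell and 4 rose in SH3 (median 0.51), called by edgeR. At an unadjusted p under 0.05 the number lower was also 0 in both. For scale, edgeR called 30.4% of all genes lower and 31.1% higher in SH2 RNA, and 25.2% lower and 27.8% higher in SH3 RNA. AREG, the growth factor amphiregulin, rose in both, with mean levels of 21.3 ± 5.56, 149 ± 15.6 and 64.8 ± 4.32 CPM for SC, SH2 and SH3 (SD, n = 3 each), a log2 change of 2.81 (SE 0.16, adjusted p = 1.91e-08) and 1.61 (SE 0.15, adjusted p = 2.30e-06). VEGFA, an inducer of vessel growth, rose by 0.68 (adjusted p = 0.000464) and 0.36 (adjusted p = 0.0316). TGFB1 gave 0.07 and 0.08, without passing the threshold. In footprints 0 of 7 fell in either hairpin, and 5 rose in SH2 and 3 in SH3. The footprint background was 23.2% of genes lower and 21.0% higher in SH2, and 19.0% lower and 16.9% higher in SH3. The counts of this list were not tested against either background. At an unadjusted p under 0.05 the footprints of 0 were lower in SH2 and of 1 in SH3, the chemokine gene CXCL8 (named after its values were seen). Whether these changes have anything to do with HOXB9 was not tested.

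The 3 genes whose levels followed HOXB9 most closely over the 18 libraries were PLEKHA6, MYBL2 and PLK1. The measure was the root mean square difference in log2 CPM, centred within each library kind, among 10334 genes. It was 0.379 for PLEKHA6, 0.402 for MYBL2 and 0.404 for PLK1, against a median of 1.198 over all genes ranked. In RNA they changed by -2.43 and -1.80 (PLEKHA6), -2 and -1.53 (MYBL2) and -2.24 and -1.75 (PLK1) in SH2 and SH3. Their footprint changes were -2.46 and -1.10, -2.69 and -1.47, and -2.04 and -1.63, beside -3.18 and -2.51 for HOXB9. Since the 3 genes were picked by likeness over these same libraries, their falls follow from the choice.

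In the authors' deposited table the log2 change of HOXB9 was -2.47 in SH2 RNA, -1.92 in SH3 RNA, -3.20 in SH2 footprints and -2.50 in SH3 footprints. For HOXB3 the authors' deposited table gives -0.28 and -0.84 in RNA. In that table and in the fits above, the SC libraries are shared by the 2 hairpin comparisons, so a chance value of SC enters both.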

How the data were processed

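Per the labels' protocols, MDA-MB-231 lysates were divided into input RNA and RNase I footprints. The deposited table holds raw whole-number counts per gene symbol, and the authors' DESeq2 log2 fold changes and p-values, per the file headers. Normalized columns were not used. The submitters' processing notes name Bowtie 1.2.2 and DESeq2. Genome build, annotation, counting tool, strand and multiple matches are not given in the sources used here, so no coordinates are printed. RefSeq's gene table (GRCh38.p14) served only for names and gene order on chromosome 17.

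Counts were tested with edgeR 4.0.16 (limma 3.58.1, R 4.3.3): filterByExpr (minimum count 10), TMM, two-sided quasi-likelihood tests and Benjamini-Hochberg adjustment over all genes tested. RNA (9 libraries), footprints (9) and translational efficiency (18, interaction) had 1 fit each. Called means an adjusted p under 0.05. SE is the absolute log2 change divided by the square root of F, and intervals are 1.96 SE wide on each side. Ratios of summed counts have exact 95% conditional intervals. Alternatives were DESeq2 1.42.0, its size factors, no filter, a threshold of 0.01, a replicate block, only the groups compared, and each library left out. The tests were checked on simulated data with 200 changed genes.

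Members and lists were chosen with earlier results of these data known. All 8 members are named, all flanking genes tested, and from each other list the 3 tested genes with the highest mean RNA CPM. ESR1, CXCL8, CAV1, CAV2, CD44 and FOXA1 were added outside this rule. CPM used TMM scaling, and the likeness measure a prior count of 3. Replicates of a group differed by a chi-square of at least 3.48 per degree of freedom, so no library was a duplicate. Same-numbered SC and SH2 libraries deviated together (correlations of 0.345 to 0.373 in RNA and 0.252 to 0.299 in footprints). Same-numbered pairs with SH3 ran from -0.131 to 0.474 in RNA and from -0.118 to 0.318 in footprints. Libraries of different numbers were not compared, so this check does not settle whether replicates are paired. The main fits took no account of replicate number. No molecular identifiers are described, so counting intervals cover counting error only.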

Additional observations from a re-analysis of the deposited data

Results flagged for a closer look

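HOXB9 RNA met the criterion for a difference between 2 groups under the same contrast. Its fall against SC was deeper in SH2 than in SH3 by a log2 difference of -0.5604 (SE 0.20, edgeR adjusted p = 0.0398), and all 3 SH2 libraries (2.71 to 3.33 CPM) lay below all 3 SH3 libraries (3.60 to 5.72 CPM). The difference was tested directly, in a contrast where 39.3% of all genes were called in either direction. The call was lost in several leave-one-out fits, with an edgeR adjusted p of up to 0.252, without SH3 replicate 1. FBL RNA itself stood at 1.48% of SC in SH2 and 0.897% in SH3, and the hairpins did not differ in it past the threshold (log2 difference 0.72, SE 0.47, edgeR adjusted p = 0.242). The part of FBL in the difference of HOXB9 was not tested.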

How the results depend on the processing

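For the 7 members other than HOXB9, the number called in RNA was 0 in SH2, and 1 without the filter on low counts. In SH3 it was 1, against 3 without the filter, 0 at an adjusted p under 0.01, and 0 to 1 when each library was left out (0 without SC replicate 2). The 3 include HOXB6, whose call rests on SC replicate 2 and is not read as a change. Between SH2 and SH3, 1 of 8 members was called in RNA, against 0 at an adjusted p under 0.01, 0 when only the 2 groups compared were fitted (HOXB9 at an adjusted p of 0.0578), and 0 to 1 when each library was left out. In footprints against SC no member but HOXB9 could be tested except without the filter, where 0 of 4 were called, and in translational efficiency HOXB3 is at the floor, so these counts of 0 say nothing of stability. The sign of the HOXB9 translational efficiency difference between SH2 and SH3, -0.14, turned to 0.32 without SH2 replicate 1 and 0.03 without SH3 replicate 3, within a range of -0.68 to 0.32 when each library was left out. The cause was not tested. HOXB9 against SC kept its direction under all 14 alternatives, from -2.57 to -2.38 in SH2 RNA, -2.16 to -1.79 in SH3 RNA, -3.63 to -2.80 in SH2 footprints and -2.64 to -2.32 in SH3 footprints. A replicate block gave HOXB9 RNA changes of -2.45 and -1.90 and a HOXB3 change of -0.80 in SH3 (edgeR adjusted p = 0.00954), and changed no call. Between SC and SH3 the same-numbered RNA libraries correlated at 0.240, -0.131 and 0.307, so a pairing by those numbers is not shown. HOXB9 footprints could not be fitted for SH2 against SH3 alone, being below the filter. Depth limits HOXB2 and HOXB4 to HOXB8, with at most 10 RNA reads a library.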

Other observations

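The deposited table's measure RD held the same log2 value for SH2 and SH3 in 17017 of 17017 genes, HOXB9 included, at -0.62 for both. It was therefore not used for translational efficiency, and the joint fit gave -0.77 for SH2 and -0.63 for SH3 instead.

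HOXB13 had 1 footprint read, in SC replicate 3, and no RNA read in any library.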
